A study of Saccharomyces cerevisiae with 14 samples.

Results

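Trehalose synthesis and breakdown was followed through the 7 genes of the yeast pathway, TPS1, TPS2, TPS3, TSL1, NTH1, NTH2 and ATH1, which were chosen by name from the 6598 genes of the table. All 7 had a row and a value in each of the 6 conditions, and all 7 passed a filter that dropped genes under 1 FPKM in every condition. RNA came from Saccharomyces cerevisiae of the W303 background, either delta-rpd3, which lacks the histone deacetylase gene RPD3, or wild type. Each genotype was harvested as log cells, growing at an OD600 of 0.4 to 0.6, as DS (diauxic shift) cells, 2 hours after glucose had run out, and as Q (quiescent) cells, taken from 7-day stationary cultures with a Percoll gradient. There were 14 libraries: 2 isolates for each mutant harvest and for wild-type DS and Q, and 4 libraries for wild-type log, where each of 2 isolates was prepared with 0.2 and with 1 equivalents of ERCC spike-in RNA.

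The table holds 1 value per condition, in FPKM (fragments per kilobase of transcript scaled to the sequenced total, so levels of genes of different length can be compared) that the authors rescaled to the RNA content of a cell by means of the spike-ins. No value here therefore has a replicate, an SD or a test, read depth is unknown, and "higher" and "lower" below describe single values whose distance from their neighbours has no measured error. A difference between conditions is given as the difference of log2(FPKM + 1), and a gene is counted where that difference reaches 2-fold. RPD3 had no value in mutant log cells and 0.941 and 0.0279 FPKM in mutant DS and Q cells, against 70.8, 37.7 and 2.35 FPKM in wild-type log, DS and Q cells. The per-cell scale itself moves most genes: the median gene had 50.5, 34.3 and 19.1 FPKM in mutant log, DS and Q cells, against 38.4, 20.5 and 1.39 FPKM in wild type. In such bulk cultures fewer cells with a transcript and less of it in each cell cannot be told apart.

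Trehalose is a disaccharide of glucose that yeast stores as it stops growing and that protects membranes and proteins from heat and drying. Tps1 joins glucose 6-phosphate and UDP-glucose to trehalose 6-phosphate, which also restrains entry of glucose into glycolysis, and Tps2 removes the phosphate. Tps3 and Tsl1 are the large regulatory subunits of the same synthase complex. Breakdown to glucose is done by the neutral trehalase Nth1 in the cytosol, which protein kinase A and 14-3-3 proteins activate, by its paralog Nth2, and by the acid trehalase Ath1, which acts on trehalose outside the cytosol. Many genes of the pathway are known targets of the stress factors Msn2 and Msn4, which bind the stress response element AGGGG.

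The upstream sequence is shown for the 4 members with this element in the 250 bases before the start codon, and for ATH1. ATH1 had none there and was the member with the largest difference between DS and log cells. Each line runs 5′ to 3′ along the gene, from 250 to 101 bases before the start codon, with the element in capitals (CCCCT where it lies on the opposite strand). Sequence and positions are those of RefSeq for build R64 of strain S288C, since the build used for the table is not given in the sources used here. They cover chrII:490493-490642 (minus strand) for TPS1, chrXIII:793470-793619 (minus strand) for TPS3, chrXIII:70374-70523 (plus strand) for TSL1, chrIV:452576-452725 (minus strand) for NTH1 and chrXVI:615129-615278 (plus strand) for ATH1.
TPS1: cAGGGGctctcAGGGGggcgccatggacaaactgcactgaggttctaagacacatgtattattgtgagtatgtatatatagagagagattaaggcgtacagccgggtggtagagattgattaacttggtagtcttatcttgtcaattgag
TPS3: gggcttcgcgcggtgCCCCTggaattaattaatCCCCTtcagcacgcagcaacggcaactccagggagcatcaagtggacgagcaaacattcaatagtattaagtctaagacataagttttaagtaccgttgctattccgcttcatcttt
TSL1: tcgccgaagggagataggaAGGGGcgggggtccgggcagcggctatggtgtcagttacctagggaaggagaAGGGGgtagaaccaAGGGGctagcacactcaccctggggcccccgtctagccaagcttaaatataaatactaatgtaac
NTH1: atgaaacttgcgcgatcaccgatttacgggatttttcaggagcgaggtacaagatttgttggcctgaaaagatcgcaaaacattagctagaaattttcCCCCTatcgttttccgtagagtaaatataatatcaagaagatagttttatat
ATH1: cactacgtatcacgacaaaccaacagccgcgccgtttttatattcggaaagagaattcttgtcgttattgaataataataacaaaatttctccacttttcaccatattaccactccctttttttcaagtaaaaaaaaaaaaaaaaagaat

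In the whole window of 250 bases before the start codon, AGGGG occurred on either strand in 4 of 7 members, TPS1, TPS3, TSL1 and NTH1, and in 18.8% of 6001 promoters of nuclear protein-coding genes. TSL1 had 3 matches, starting 231, 179 and 165 bases before the start, and 0.383% of promoters had at least as many. TPS1 and TPS3 had 2 each, and NTH1 had 1. The TPS3 pair lay on the opposite strand. A heat shock element, GAANNTTC or TTCNNGAA, was found in TPS1, starting 86 bases before the start, and in ATH1, at 20 bases, both outside the stretches printed, and in 19.3% of all promoters. No member held a post-diauxic shift element (TAAGGGAT or TTAGGGAT, 1.47% of promoters) or AGCCGCC, the core of the URS1 site through which Ume6 recruits Rpd3 (1.9%). All motifs were searched on both strands and no matches of different motifs overlapped. A match is a run of letters, not a shown binding site, and W303 may differ from S288C.

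**Figure D1:**
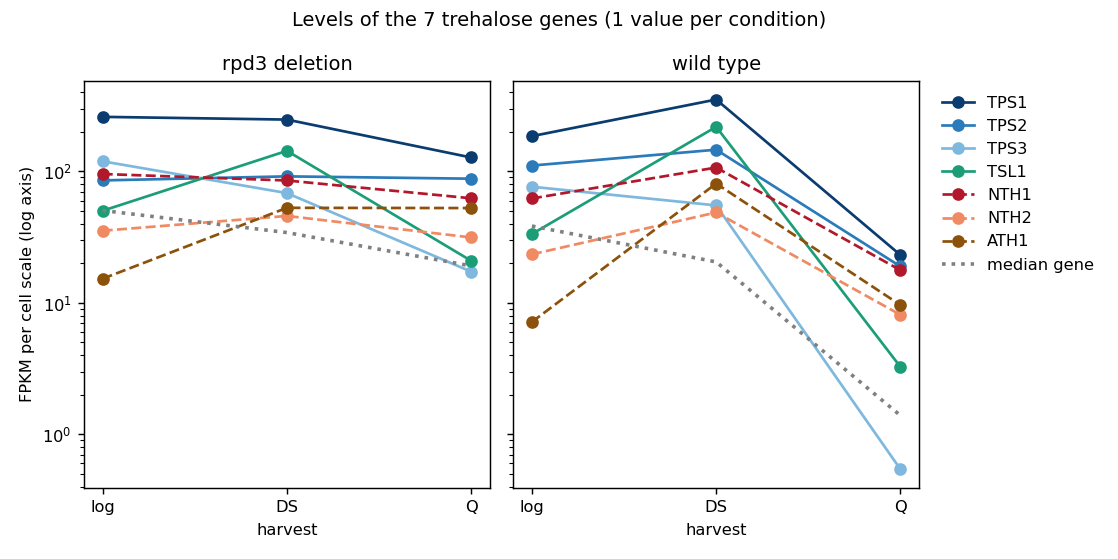
FPKM on the per-cell scale (log axis) of the 7 genes at the log, DS and Q harvests, rpd3 deletion on the left and wild type on the right; solid lines are synthase complex genes, dashed lines trehalase genes and the dotted line the median gene, 1 value per point. TPS1 was the highest member in all 6 conditions, and TPS3 the lowest in Q cells of both genotypes, at 17.3 FPKM in the mutant and 0.542 FPKM in wild type.

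TPS1, the synthase gene, had 260.1, 248 and 128 FPKM in mutant log, DS and Q cells, against 185, 352 and 23.1 FPKM in wild-type log, DS and Q cells. It was the highest of the 7 members in every condition, with its own highest value in wild-type DS cells and its lowest in wild-type Q cells. TPS2, the phosphatase gene, had 85.4, 91.7 and 88.0 FPKM in the mutant, against 111, 146 and 18.9 FPKM in wild type. In the mutant its values at the 3 harvests lay closest together of all members, while wild-type Q cells held the lowest value of the gene.

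The regulatory subunits are paralogs whose proteins, translated from the R64 coding sequences, were 56.6% identical over 1041 aligned residues, and their transcripts had different patterns. TSL1 had 50.2, 143 and 20.9 FPKM in mutant log, DS and Q cells, against 33.4, 218 and 3.26 FPKM in wild type. It peaked in DS cells of both genotypes and was below its log level in Q cells of both on this scale. TPS3 had 119, 68.4 and 17.3 FPKM in the mutant, against 76.5, 55.1 and 0.542 FPKM in wild type. On this scale it was highest in log cells and lower at each later harvest in both genotypes. With columns scaled to the same median gene, its wild-type DS value (103 FPKM) was above its wild-type log value. The ratio of TSL1 to TPS3 was 0.42, 2.10 and 1.21 in mutant log, DS and Q cells, against 0.44, 3.96 and 6.01 in wild type, so TPS3 had the higher level in log cells and TSL1 at both later harvests. The longest run of identical bases in the coding sequences of the pair was 15. In wild-type Q cells TPS3 had 0.542 FPKM, where the median gene had 1.39 FPKM, so the last ratio rests on a small value.

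NTH1, the neutral trehalase gene, had 95.6, 85.3 and 62.5 FPKM in mutant log, DS and Q cells, against 62.2, 107 and 17.7 FPKM in wild type. NTH2 had 35.4, 45.9 and 31.5 FPKM in the mutant, against 23.4, 48.7 and 8.11 FPKM in wild type. NTH1 was above NTH2 in all 6 conditions, by a ratio of 2.70, 1.86 and 1.99 in mutant log, DS and Q cells, against 2.66, 2.196 and 2.18 in wild type. Their proteins were 77.0% identical over 748 aligned residues and the coding sequences shared a longest run of 33 identical bases, so reads from such runs could have been split between them. Among 5884 other genes NTH2 ranked 15 in likeness of profile to NTH1.

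ATH1, the acid trehalase gene, had 15.3, 52.9 and 52.6 FPKM in mutant log, DS and Q cells, against 7.16, 80.8 and 9.63 FPKM in wild type. It was the lowest member in log cells of both genotypes and the only member above its log level in wild-type Q cells. In the mutant its DS and Q values were nearly the same. None of the 7 genes overlapped another annotated gene in R64, and each has a single coding exon. The nearest annotated gene on either side lay between 312 bases (upstream of TSL1) and 1473 bases (downstream of NTH2) away.

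**Figure D2:**
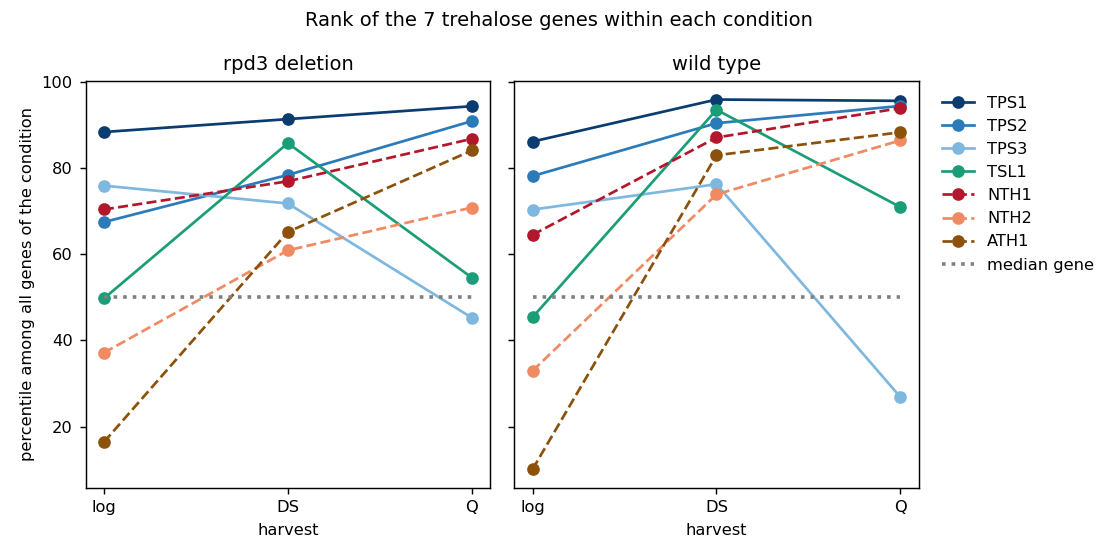
Percentile of each member among all genes with a value in the same condition, at the log, DS and Q harvests, rpd3 deletion on the left and wild type on the right; the dotted line is the median gene. ATH1 stands at percentile 16.4 in mutant and 10.1 in wild-type log cells and at 84.1 and 88.4 in mutant and wild-type Q cells, where TPS3 stands at 45.3 and 26.8.

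A gene's percentile among all genes of its condition does not depend on the per-cell scale. ATH1 stood at percentile 16.4, 65.2 and 84.1 in mutant log, DS and Q cells, against 10.1, 83.0 and 88.4 in wild type. NTH2 stood at 37.1, 60.9 and 70.9 in the mutant, against 32.9, 73.9 and 86.5 in wild type, and NTH1 at 70.4, 77.0 and 86.8 in the mutant, against 64.5, 87.1 and 94.0 in wild type. The 3 trehalase genes thus ranked higher at each later harvest in both genotypes, although their per-cell values in wild-type Q cells were below those in DS cells.

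Of the synthase genes, TPS2 also ranked higher at each later harvest, at percentile 67.5, 78.5 and 91.0 in mutant log, DS and Q cells, against 78.2, 90.5 and 94.5 in wild type. TPS1 was at 88.4, 91.4 and 94.4 in the mutant, against 86.2, 96.0 and 95.7 in wild type. The regulatory subunit genes stood apart from these: TSL1 was at 49.8, 85.8 and 54.6 in the mutant, against 45.4, 93.6 and 71.0 in wild type. TPS3 was at 76.0, 71.8 and 45.3 in the mutant, against 70.4, 76.3 and 26.8 in wild type.

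In mutant DS against log cells ATH1 (1.73) and TSL1 (1.496) were at least 2-fold higher and 0 of 7 members were lower, with 7.54% of all genes past 2-fold upwards and 28.6% downwards. The remaining members lay between -0.80 (TPS3) and 0.36 (NTH2), and TPS1 (-0.07) and NTH1 (-0.16) were close to their log values and turned to 0.49 and 0.40 with every column scaled to the same median gene. The median member was at 0.10 and the median gene at -0.52, and 6 of 7 members were above the median gene.

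In wild-type DS against log cells 7 of 7 members were above the median gene. ATH1 (3.33), TSL1 (2.67) and NTH2 (1.03), 3 of 7, were at least 2-fold higher and 0 of 7 lower, where 9.91% of 6519 genes reached 2-fold upwards and 44.2% downwards. The others were at 0.92 (TPS1), 0.77 (NTH1), 0.40 (TPS2) and -0.46 (TPS3). The median member was at 0.92 and the median gene at -0.85. With every column scaled to the same median gene, 6 of 7 members were at least 2-fold higher, all but TPS3, which turned to 0.43. With a pseudocount of 10 NTH2 was at 0.81, under 2-fold.

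For the step from log to DS cells, the difference in the mutant minus that in wild type was negative for 7 of 7 members, from -1.60 (ATH1) and -1.18 (TSL1) to -0.30 (TPS2), whereas the median gene was at 0.40. It was past 2-fold downwards in 2 of 7 members and in 6.04% of genes, and upwards in 0 of 7 and in 22.6% of genes. Scaled to the same median gene, 5 of 7 were at least 2-fold lower. Both genotypes' differences are measured from their own log cells, whose values were higher in the mutant for 6 of 7 members.

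In mutant Q against log cells 1 of 7 members was at least 2-fold higher, ATH1 (1.72), and 3 of 7 were lower, TPS3 (-2.72), TSL1 (-1.23) and TPS1 (-1.02). Of all genes 4.36% were higher and 64.9% lower, and the median gene was at -1.39. With columns scaled to the same median gene TSL1 and TPS1 turned to 0.16 and 0.40, while ATH1 (3.11) and TPS3 (-1.34) kept their direction. NTH1 (-0.61) and NTH2 (-0.17), within 2-fold of log on the deposited scale, turned to 0.81 and 1.23. With a pseudocount of 10 only TPS3 remained at least 2-fold lower.

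In wild-type Q against log cells 6 of 7 members were at least 2-fold lower and 0 of 7 at least 2-fold higher, near the background of 93.2% lower and 1.84% higher. ATH1 was the exception at 0.38. The others ran from -1.42 (NTH2), -1.76 (NTH1) and -2.49 (TPS2) to -2.95 (TPS1), -3.01 (TSL1) and -5.65 (TPS3), against -3.87 for the median gene. All but TPS3 were thus above the median gene, and with columns scaled to the same median gene 6 of 7 were at least 2-fold higher than in log cells and TPS3 was lower (-2.24). The direction thus turned with the scale for TPS1, TPS2, TSL1, NTH1 and NTH2, and was the same on both scales for ATH1 and TPS3.

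In mutant Q against DS cells 2 of 7 members were at least 2-fold lower, TSL1 (-2.72) and TPS3 (-1.93), with 40.6% of genes lower and 2.68% higher. ATH1 (-0.01), TPS2 (-0.06), NTH1 (-0.44), NTH2 (-0.53) and TPS1 (-0.95) were within 2-fold of their mutant DS values. Wild-type Q cells had 7 of 7 members at least 2-fold lower than wild-type DS cells, where 94.6% of genes were lower and 0.171% higher. They ranged from -2.45 (NTH2) to -5.69 (TSL1), around the median gene at -2.90. In both genotypes TSL1 and TPS3, the regulatory subunit genes, were the members furthest below their DS values. With scaled columns TPS2, NTH1, NTH2 and ATH1 of wild type turned to values between 0.85 and 1.32, and the same 4 of the mutant to values between 0.32 and 0.85.

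**Figure D3:**
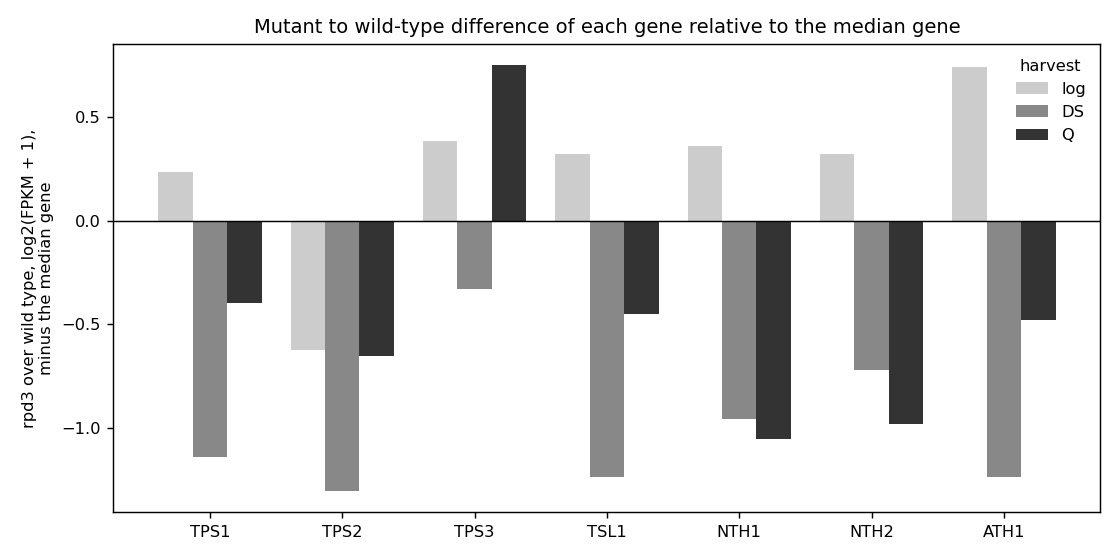
Mutant over wild-type difference of log2(FPKM + 1) for each member at the log, DS and Q harvests, after subtracting the difference of the median gene at that harvest (0.25, 0.64 and 2.81). All 7 bars for DS lie below 0, from -0.33 (TPS3) to -1.30 (TPS2); on the deposited scale TPS3 was above wild type in DS cells.

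The comparison of mutant with wild type asks how the pathway's transcripts differ without Rpd3. In log cells 0 of 7 members differed by 2-fold in either direction, with 10.2% of genes past that mark upwards in the mutant and 3.38% downwards. Of the members, 6 were higher in the mutant, from 0.49 (TPS1) to 1.00 (ATH1), and TPS2 was lower (-0.37). ATH1, at 15.3 FPKM in mutant and 7.16 FPKM in wild-type log cells, a ratio of 2.13, was just under the 2-fold mark because of the pseudocount. The median gene was at 0.25. With columns scaled to the same median gene the 6 higher members lay between 0.10 (TPS1) and 0.64 (ATH1). TPS2 was then at -0.75, the largest difference of the 7.

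In DS cells the members stood lower in the mutant relative to other genes. TPS2 (-0.67), ATH1 (-0.60), TSL1 (-0.60), TPS1 (-0.51), NTH1 (-0.32) and NTH2 (-0.09) had lower values in the mutant than in wild type, and TPS3 a higher one (0.31), which turned to -0.41 with scaled columns. None of these 7 reached 2-fold, against 31.3% of genes that did so upwards and 3.61% downwards, and the median gene was at 0.64. Among the differences of all genes the members lay between percentile 5.30 (TPS2) and 30.4 (TPS3). With columns scaled to the same median gene 5 of 7 were at least 2-fold lower in the mutant.

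In Q cells 7 of 7 members were at least 2-fold higher in the mutant, from 1.76 (NTH1) to 3.57 (TPS3), which is near the background of 94.5% of genes higher and 0.343% lower. TPS1, for example, had 128 FPKM in mutant Q and 23.1 FPKM in wild-type Q cells, a ratio of 5.52. The median gene differed by 2.81, and 6 of 7 members differed by less than that. With columns scaled to the same median gene these 6 were at least 2-fold lower in the mutant, between -1.08 (TSL1) and -1.96 (NTH1), and TPS3 remained higher (1.16).

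For the step from log to Q cells, the difference in the mutant minus that in wild type was past 2-fold upwards for 7 of 7 members, from 1.15 (NTH1) to 2.93 (TPS3). Of all genes 91.6% were past 2-fold in that direction and 0.688% in the other, with the median gene at 2.52. Scaled to the same median gene, 6 of 7 were negative, from -0.81 (TPS2) to -2.18 (NTH1), and TPS3 was at 0.91.

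**Figure D4:**
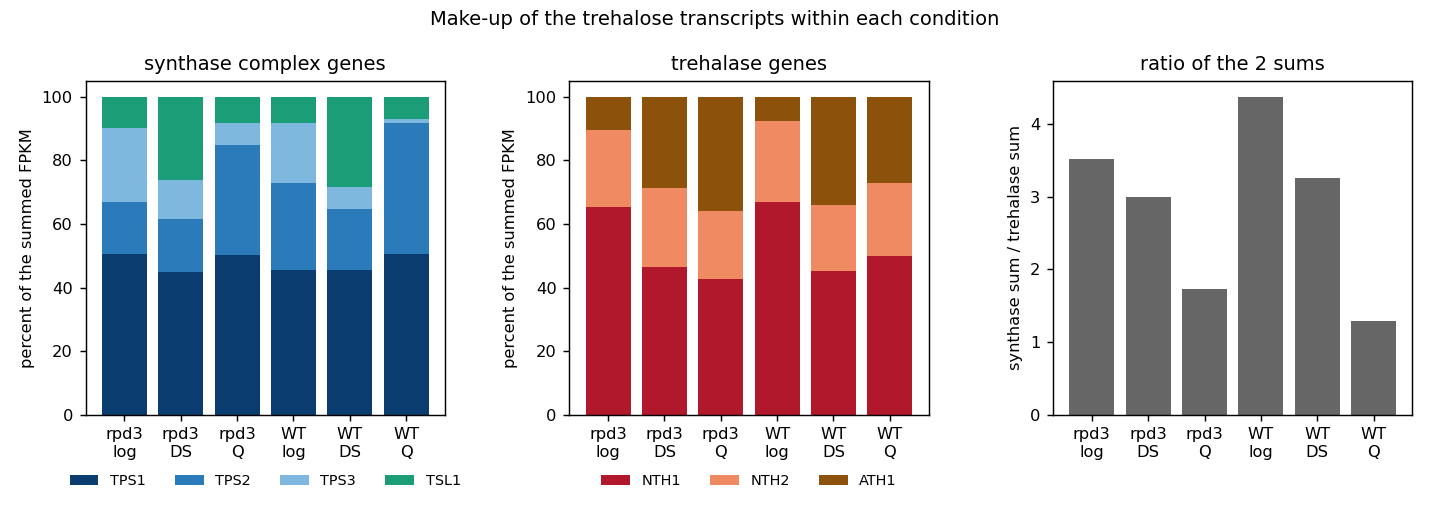
Share of each gene in the summed FPKM of the 4 synthase complex genes (left) and of the 3 trehalase genes (middle), and ratio of the summed synthase to the summed trehalase FPKM (right), in the 6 conditions, rpd3 deletion before wild type. The ratio is lower at each later harvest in both genotypes, and reaches 1.73 in mutant and 1.29 in wild-type Q cells. From log to DS cells the lower ratio rests on ATH1.

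Ratios within a condition do not depend on the per-cell scale. By the summed levels the synthesis genes outweighed the breakdown genes less at each later harvest, though from log to DS cells this rests on ATH1. The 4 synthase genes summed to 515, 551 and 254 FPKM in mutant log, DS and Q cells, against 406, 772 and 45.8 FPKM in wild type. The 3 trehalase genes summed to 146, 184 and 147 FPKM in the mutant, against 92.8, 237 and 35.5 FPKM in wild type. The ratio of synthase to trehalase sums was 3.52, 2.997 and 1.73 in mutant log, DS and Q cells, against 4.38, 3.26 and 1.29 in wild type. It was thus lower at each later harvest in both genotypes, and it began lower and ended higher in the mutant. ATH1 made up 10.4% and 28.7% of the trehalase sum in mutant log and DS cells, against 7.71% and 34.2% in wild type. Without ATH1 the ratio was not lower in DS than in log cells in either genotype.

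Within the synthase genes TPS1 held a near constant part, between 45.0% and 50.5% of the sum in the 6 conditions. The rest was shared out differently at each harvest. TPS3 made up 23.2%, 12.4% and 6.80% in mutant log, DS and Q cells, against 18.8%, 7.14% and 1.18% in wild type. TSL1 made up 9.75%, 26.0% and 8.23% in the mutant, against 8.22%, 28.3% and 7.11% in wild type, so DS cells had the largest part. TPS2 made up 16.6%, 16.6% and 34.7% in the mutant, against 27.3%, 18.9% and 41.3% in wild type, with the largest part in Q cells. TPS1 and TPS2, the catalytic subunits, together held most of the sum in all 6 conditions, and their joint part was largest in Q cells of both genotypes.

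Among the trehalase genes the part of ATH1 was 10.4%, 28.7% and 35.9% in mutant log, DS and Q cells, against 7.71%, 34.2% and 27.2% in wild type. NTH1 held 65.4%, 46.4% and 42.6% in the mutant, against 67.1%, 45.2% and 49.96% in wild type. NTH2 stayed between 20.6% and 25.2% in all 6 conditions. ATH1 to NTH1 was 0.16, 0.62 and 0.84 in mutant log, DS and Q cells, against 0.12, 0.76 and 0.54 in wild type, so NTH1 kept the higher level in each condition.

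The genes with the profile most like each member's were found by the root mean square difference of log2(FPKM + 1), each profile taken around its own mean over the 6 conditions. They were drawn from genes with a value in all conditions and at least 10 FPKM in one of them. YKL100C was nearest to TPS1 (0.08), followed by OSH7 (0.10) and POM33 (0.20). CSR2 was nearest to ATH1 (0.13) and had 17.0, 59.1 and 48.4 FPKM in mutant log, DS and Q cells, against 7.42, 71.1 and 10.01 FPKM in wild type. FRA1, NVJ1 and IRA1 were each at 0.13 from NTH1, and ATG15 (0.11), CYC7 (0.12) and DGA1 (0.13) were next to NTH2. GRX2 (0.20) was nearest to TSL1, TUM1 (0.16) to TPS3 and FAR7 (0.19) to TPS2. No other member was among the 3 nearest of any member. The differences between members were as large as 2.2, between TPS3 and ATH1, and TPS3 and TSL1 were at 1.24.

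Genes that feed or control the pathway were followed in lists drawn up from its known biology. The substrates glucose 6-phosphate and UDP-glucose come from the hexose kinases and from PGM1, PGM2 and UGP1, and 3 of these 6 genes were at least 2-fold higher and 3 lower in DS than in log cells, in the mutant and in wild type alike. Of all genes 7.54% were past 2-fold upwards and 28.6% downwards in the mutant, and 9.91% and 44.2% in wild type. With scaled columns 3 were past 2-fold upwards and 1 downwards in the mutant, against 3 and 2 in wild type. In wild type GLK1, glucokinase (3.03), PGM2, the major phosphoglucomutase (1.97), and HXK1 (1.13) were higher in DS cells. HXK2, the hexokinase of growth on glucose (-5.61), PGM1, the minor phosphoglucomutase (-3.16), and UGP1, which makes UDP-glucose (-1.02), were lower. UGP1 stood near the median gene (-0.85) and was at -0.12 with scaled columns. Isozymes of both steps thus lay on opposite sides of their log values, as TSL1 and TPS3 did in both genotypes. TPS3 was within 2-fold of log in each, and in wild type it turned from -0.46 to 0.43 with scaled columns. Several of these genes have close paralogs, and how the authors assigned reads shared by paralogs is not given in the sources used here.

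Of 9 genes that control trehalase or carry trehalose, 1 was at least 2-fold higher and 2 lower in mutant DS than in log cells, against 3 higher and 2 lower in wild type, with the same shares of all genes as above. With scaled columns the counts were 1 and 2 in the mutant, against 6 and 1 in wild type. In the mutant DCS2 was higher (2.99) and TPK3 (-1.81) and BMH1 (-1.68) lower. DCS2 (4.87) and DCS1 (1.94), whose products are linked to inhibition of the neutral trehalase, were higher in wild type, as was the protein kinase A gene TPK2 (1.55), while TPK3 (-2.74) and the 14-3-3 gene BMH1 (-1.63) were lower. Mutant log cells already had more of DCS1 (1.56 against wild type), TPK2 (1.36) and BCY1, the regulatory subunit (1.22), the 3 of 9 genes past 2-fold there, where 10.2% of all genes were past it upwards and 3.38% downwards. With scaled columns 1 of the 9, DCS1, was past 2-fold upwards in that comparison and 0 downwards. In wild-type Q against log cells 7 of 9 were lower and DCS2 was the 1 gene higher (2.07), against 93.2% of all genes lower and 1.84% higher. With scaled columns 5 of 9 were higher and 2 lower.

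The 10 stress and nutrient regulators had 0 genes at least 2-fold higher and 4 lower in mutant DS than in log cells, against 0 higher and 5 lower in wild type, among them MSN2 (-1.75) and MSN4 (-1.19). Of all genes in this step 28.6% were past 2-fold downwards in the mutant and 44.2% in wild type. With scaled columns 0 were higher and 3 lower in the mutant, against 1 and 2 in wild type, where MSN2 was at -0.90 and MSN4 at -0.30. Their transcripts say nothing of the activity of the proteins, which is controlled mainly by phosphorylation and location. Of 8 glycogen genes, the other reserve carbohydrate, 7 were at least 2-fold higher in DS than in log cells in each genotype, with a median of 1.35 in the mutant and 1.86 in wild type, where 7.54% of all genes in the mutant and 9.91% in wild type were past 2-fold upwards. The trehalose members' medians in the same step were 0.10 in the mutant and 0.92 in wild type.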

How the data were processed

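RNA of 6 conditions was described from 1 deposited table. The authors deposited log2 values of FPKM scaled with external RNA to the RNA content of a cell, as the table's name and the series design text state. Neither the genome build and annotation nor the way isolates and spike amounts were combined is given in the sources used here. Per the submitters' processing notes, the tools were Cufflinks 2.2.1, Cuffdiff, TopHat2, SAMtools and CASAVA. The log base is an inference from the wild-type log column. FPKM multiplied by length in kilobases was summed over the 5396 genes with a length and a value in all 6 conditions. The sum came to 1253790 with base 2 and to 30651600 with base e. Unscaled FPKM of all genes should give about 1000000, and this column is rescaled, so the comparison is rough.

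Of 6602 rows, 4 with 2 repeated names were left out, and 108 values at the end of the mutant DS column that repeat the start of mutant Q (none in a member or listed gene) were set aside after the data were seen. Blank cells were taken as no value. Log values were converted to FPKM, the 6524 genes that reached 1 FPKM somewhere were kept, and differences of log2(FPKM + 1) were counted past 2-fold, with Python 3.11.15 and pandas 2.3.3. The counting code was checked on simulated data without noise, which says nothing of the error of these values. With 1 value per condition no test could be made. Coding sequences, translated and aligned with Biopython 1.88 (BLOSUM62), and upstream sequence came from RefSeq R64.

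The members and lists were chosen with earlier results of these data known. All members were named, listed genes where past 2-fold, and the 3 nearest profiles per member. Alternatives were a pseudocount of 0.1 or 10, columns scaled to the same median gene before the pseudocount, no filter, and, added later, changes relative to the median gene and the repeated values kept. One listed gene is not reported here.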

Additional observations from a re-analysis of the deposited data

Results flagged for a closer look

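For 3 results the genotypes' single values lay on opposite sides of their log values, and the difference was not tested because each condition has 1 value. In DS against log cells TPS1 was at -0.07 in the mutant and at 0.92 in wild type, a difference of -0.99. NTH1 was in the same step at -0.16 in the mutant and at 0.77 in wild type, a difference of -0.93. In Q against log cells TPS2 was at 0.04 in the mutant and at -2.49 in wild type, a difference of 2.53. The median gene's differences were 0.40 for the first step and 2.52 for the second, so TPS2 lay at the median gene and the other two below it. With columns scaled to the same median gene no sign was opposite between genotypes for these 3: TPS1 was at 0.49 in the mutant and 1.83 in wild type, NTH1 at 0.40 and 1.67, and TPS2 at 1.46 and 2.27.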

How the results depend on the processing

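No paired analysis was possible because the table holds 1 value per condition and no isolate of its own. For the same reason no library could be left out, and depth and precision are unknown. Leaving the filter out changed none of the 18 member counts. It could not have done so, because every member passed the filter and each difference uses only the gene's own values. Keeping the repeated mutant DS values left all 22 shares of genes past 2-fold within 1.5 times, though only shares that use mutant DS cells could change. Adding the 50 bases after the start to the motif search changed no member count. The search window was not extended further upstream.

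Scaling every column to the same median gene was the choice that mattered most. In the mutant it gave 3 members at least 2-fold higher and 1 lower in Q against log. In wild type it gave 6 higher in DS against log, 6 higher and 1 lower in Q against log, and 2 higher and 2 lower in Q against DS. For mutant against wild type it gave 5 lower in DS, and 1 higher and 6 lower in Q. For the mutant change minus the wild-type change it gave 5 lower from log to DS, and 0 higher and 5 lower from log to Q. Changes relative to the median gene gave 5 lower for the first of these, and 0 higher and 3 lower for the second.

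Among members past 2-fold on the deposited scale, those that turned sign with scaled columns were, in mutant Q against log, TPS1 (0.40) and TSL1 (0.16). In wild-type Q against log they were TPS1 (1.82), TPS2 (2.27), TSL1 (1.44), NTH1 (2.99) and NTH2 (3.24), and in wild-type Q against DS TPS2 (0.97), NTH1 (1.32), NTH2 (1.32) and ATH1 (0.85). In mutant against wild-type Q they were TPS1 (-1.31), TPS2 (-1.56), TSL1 (-1.08), NTH1 (-1.96), NTH2 (-1.81) and ATH1 (-1.33). In the genotype difference from log to Q they were TPS1 (-1.41), TPS2 (-0.81), TSL1 (-1.28), NTH1 (-2.18), NTH2 (-2.01) and ATH1 (-1.96), and relative to the median gene TPS1 (-0.59), TSL1 (-0.74), NTH1 (-1.37), NTH2 (-1.27) and ATH1 (-1.19). Members within 2-fold on the deposited scale also turned sign: NTH1 (0.81) and NTH2 (1.23) in mutant Q against log, TPS1 (0.49) and NTH1 (0.40) in mutant DS against log, TPS2 (0.80), NTH1 (0.41), NTH2 (0.32) and ATH1 (0.85) in mutant Q against DS, TPS3 (0.43) in wild-type DS against log, and TPS3 (-0.41) in mutant against wild-type DS. The scaling itself shifts every gene of a column, so these turns follow from its construction.

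A pseudocount of 10 left 1 member lower in mutant Q against log and 3 higher in the genotype difference from log to Q. In wild type it left 2 higher in DS against log and 5 lower in Q against log. NTH2 was the member that fell under 2-fold there, at 0.81 and -0.88. A pseudocount of 0.1 gave 1 member, ATH1, at least 2-fold higher in mutant against wild-type log cells. With a pseudocount of 1 on each level the synthase to trehalase ratios were 3.48, 2.97 and 1.72 in mutant log, DS and Q cells, against 4.28, 3.24 and 1.30 in wild type.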
